A study of Macaca mulatta with 27 samples.

Results

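Imprinted genes were examined in rhesus monkey pluripotent stem cells (PSCs) kept in the primed state or moved to 7 culture protocols meant to bring them to the naive state. The set holds 10 protein-coding genes chosen by symbol from 17967 gene symbols: IGF2, DLK1, PEG3, PEG10, MEST, SGCE, PLAGL1, NDN, NNAT and PHLDA2. All 10 symbols were found in the count tables. In humans 9 of them are known to be expressed from the paternal allele and 1, PHLDA2, from the maternal allele. The reads were counted per gene without regard to allele, so the parental origin of the RNA was not measured.

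RNA was sequenced from 27 libraries, 6 of primed cells and 3 of cells under each protocol, named TL2i, TL-CDK8i, LCDM (EPS), t2iLGöY, 4i/L/b, NHSM-v and E-NHSM. All groups derive from 1 clonal embryonic stem cell line, with 2 transgenes, tauGFP from the CAG promoter, which is active in most cell types, and STAT3-ERT2, a STAT3 that tamoxifen activates, delivered by a lentivirus. TL2i cells received tamoxifen, LIF and inhibitors of MEK and GSK3β, and in TL-CDK8i these inhibitors were replaced by one of CDK8 and CDK19, the kinases of the Mediator complex. The remaining 5 protocols were applied without tamoxifen, and their full compositions are not given in the sources used here. As the line is 1 clone, no other genotype was sampled, and the labels do not say that libraries of a group came from separate cultures, so p-values measure only the spread between these libraries, which may be technical. The labels put the primed libraries in 2 sets of 3, Primed and Primed 2, without saying how the sets differ, and the columns of primed cells carry the letters J and K, also 3 each. As nothing ties a letter to a set, the 6 were taken as 1 group.

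Genomic imprinting is the silencing of one parental copy of a gene, set by DNA methylation marks that differ between egg and sperm and that are kept through early development. Many paternally expressed imprinted genes promote fetal growth and many maternally expressed ones restrain it. In cultured PSCs the expression of imprinted genes is followed because their marks can be lost, above all in naive media, and because several of them are also switched on or off during differentiation.

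Total counts ranged from 7111886 to 20760914 per library, with a median of 12201171, so that 3 counts, taken here as the floor of detection, equal 0.145 to 0.422 CPM, the counts of a gene per 1000000 counts in the library. POU5F1 and NANOG, which define pluripotent cells, were lower than in primed cells in several protocols. Mean POU5F1 was 1180 CPM in primed, 1370 CPM in E-NHSM and 502 CPM in TL-CDK8i cells, and between 0.29 and 6.44 CPM in the other 5 groups. NANOG was at or under the floor in NHSM-v, 4i/L/b, t2iLGöY and LCDM (EPS) cells. SOX2, also a pluripotency marker, did not follow them throughout. Its mean was 271 CPM in primed, 400 CPM in E-NHSM and 329 CPM in LCDM (EPS) cells. In the other groups its mean lay between 74.6 CPM (4i/L/b) and 115 CPM (TL-CDK8i). The summed level of 10 neural markers ranged from 2430 to 2730 CPM in primed and from 7020 to 7330 CPM in LCDM (EPS) libraries. NES alone had a mean of 2430 CPM in primed and 3090 CPM in LCDM (EPS) cells, so the primed sum is mostly that gene. The sum of 9 fibroblast markers ranged from 1140 to 2420 CPM in primed and from 11600 to 15100 CPM in 4i/L/b libraries. COL1A1 alone had a mean of 1290 CPM in primed and 9230 CPM in 4i/L/b cells. As these are bulk samples, fewer cells of a type and less RNA per cell cannot be told apart.

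Most imprinted genes were higher than in primed cells under 5 of the protocols, 5 of the 10 were higher under TL-CDK8i, and few differed under E-NHSM. MEST was higher under all 7 protocols, DLK1 and PEG10 under all but E-NHSM, and PLAGL1 was higher under 6 and lower under E-NHSM. PHLDA2 was the only one of the 10 that was higher under no protocol, and it was lower under 6. NNAT took its own course, lower under 3 protocols and higher under 1. The test of a protocol was its 3 libraries against the 6 primed ones, by the edgeR quasi-likelihood method over all genes kept by the filter, and a gene was called at an adjusted p (Benjamini-Hochberg) under 0.05.

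Under E-NHSM, 3 of the 9 genes tested were called, 1 higher and 2 lower, where 26.2% of all genes tested were called, 11.1% higher and 15.1% lower. With NHSM-v, 9 of 10 were called, 8 higher and 1 lower, against 58.6% of all genes, 28% higher and 30.6% lower. All 10 were called with 4i/L/b, 8 higher and 2 lower, against 55.6% of all genes, 26.6% higher and 29% lower. In TL2i cells 8 were called, 7 higher and 1 lower, against 50.7% of all genes, 25.6% higher and 25.2% lower. In t2iLGöY cells 9 were called, 7 higher and 2 lower, against 54.3% of all genes, 27.1% higher and 27.2% lower. LCDM (EPS) again had all 10 called, 9 higher and 1 lower, against 57.1% of all genes, 28.2% higher and 28.9% lower. For TL-CDK8i the count was 6, 5 higher and 1 lower, against 46.1% of all genes, 22.3% higher and 23.8% lower. The share called higher was thus above that of all genes in 6 comparisons and at 1 of 9 genes, near it, under E-NHSM. As the 10 genes were chosen with earlier results of these data known, this contrast describes them only. It is no test of imprinted genes in general. IGF2, with at most 11 reads in a primed library, passed the filter on low counts only through the libraries in which it is high, so that its being tested already favoured a call.

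The median log2 fold change of the tested imprinted genes was 0.17 under E-NHSM, 0.84 under TL-CDK8i, and 2.01 (4i/L/b), 2.25 (TL2i), 2.66 (NHSM-v), 2.68 (t2iLGöY) and 2.76 (LCDM (EPS)) under the others. Over all genes tested the median lay between -0.023 (NHSM-v) and 0.069 (TL2i) in these comparisons. The 7 comparisons share the same primed libraries, so their values are not independent of each other.

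**Figure D1:**
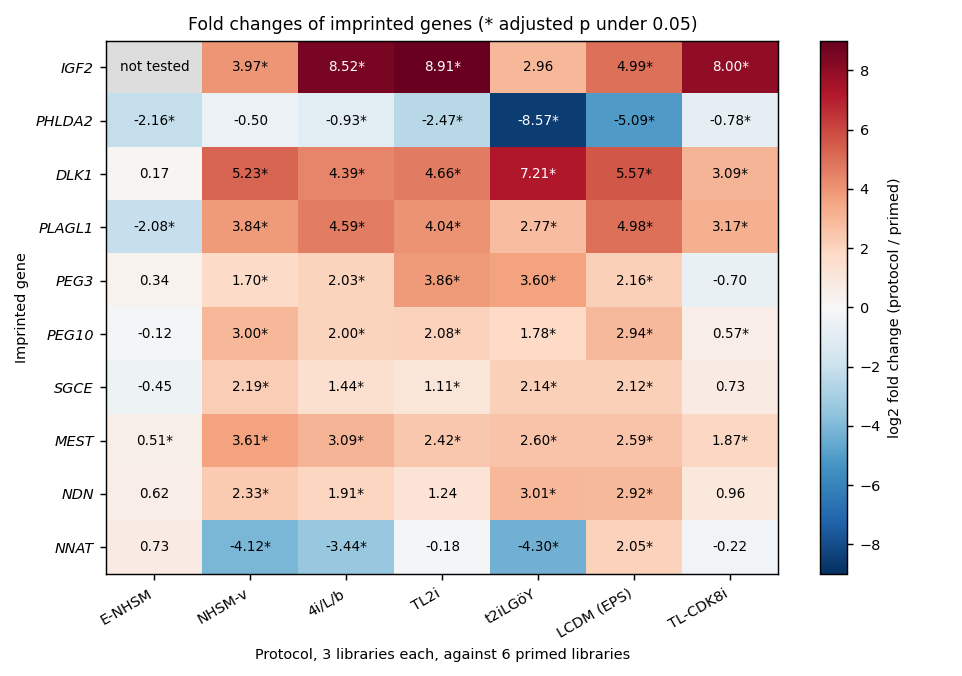
The heat map gives the log2 fold change of the 10 imprinted genes (rows) under each of the 7 protocols (columns, 3 libraries each) against the 6 primed libraries, with an asterisk where the adjusted p was under 0.05. Most entries outside the E-NHSM and TL-CDK8i columns are positive and marked, the PHLDA2 row is negative throughout, and the fitted value of PHLDA2 in t2iLGöY, where it was at the floor of detection, depends on the prior count and is not a measured fold.

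IGF2, insulin-like growth factor 2, is the main growth factor of the fetus. It was nearly absent from primed cells, with 0 to 0.143 CPM in 5 libraries and 0.975 CPM (11 reads) in the sixth, K3. In E-NHSM cells it stood at 0.471, 0.612 and 0 CPM, within the primed range, and the low-count filter removed it from that test. It was measured at 94.1, 132 and 110 CPM in TL2i, at 69.8, 108 and 88.9 CPM in 4i/L/b and at 54.5, 92.9 and 40.4 CPM in TL-CDK8i libraries. Each of these 3 groups overlapped the next in that order, and all 9 of their libraries were far above every primed one. The log2 fold changes against primed cells were 8.91 ± 0.44 (SE, adjusted p = 1.5e-09), 8.52 ± 0.48 (adjusted p = 5.2e-09) and 8.0 ± 0.56 (adjusted p = 5.5e-08).

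Lower levels of IGF2 were found in the other 3 protocols, and these also lay above the primed libraries. LCDM (EPS) gave 6.03, 9.8 and 6.23 CPM, a log2 fold change of 4.99 ± 1.0 (SE, adjusted p = 0.00068). NHSM-v gave 4.85, 3.7 and 2.64 CPM, a log2 fold change of 3.97 ± 1.2 (SE, adjusted p = 0.0087). In t2iLGöY cells the values of 1.64, 2.27 and 1.37 CPM were all above the highest primed library, but the log2 fold change of 2.96 ± 1.3 (SE) was not called (adjusted p = 0.069). It was called without primed library K3 (4.58, adjusted p = 0.0098), and with K3 kept when all 8 groups were in one fit (2.93, adjusted p = 0.00018). Because primed cells held so few IGF2 reads, the size of these folds is uncertain even where the direction is not.

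H19, a maternally expressed non-coding RNA, lies beside IGF2 in the RefSeq annotation of the assembly T2T-MMU8v2.0, with 1 gene listed between them, and in humans and mice both share an imprinting control region. H19 was at 2.68 to 3.77 CPM in primed cells. Its highest levels were in the same 3 groups as those of IGF2, at 147 to 173 CPM in TL2i, 65.6 to 105 CPM in 4i/L/b and 60.9 to 118 CPM in TL-CDK8i libraries. The log2 fold changes were 5.62 ± 0.13 (SE, adjusted p = 1.4e-12), 4.58 ± 0.18 (adjusted p = 2.1e-10) and 4.58 ± 0.22 (adjusted p = 1.7e-09). It was also higher in E-NHSM, at 1.54 ± 0.39 (adjusted p = 0.0064), where IGF2 stayed within the primed range, and in LCDM (EPS), at 1.46 ± 0.37 (adjusted p = 0.0039). In NHSM-v and t2iLGöY it was not called. Expression of H19 RNA and of IGF2 RNA in a library does not tell from which allele either came.

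**Figure D2:**
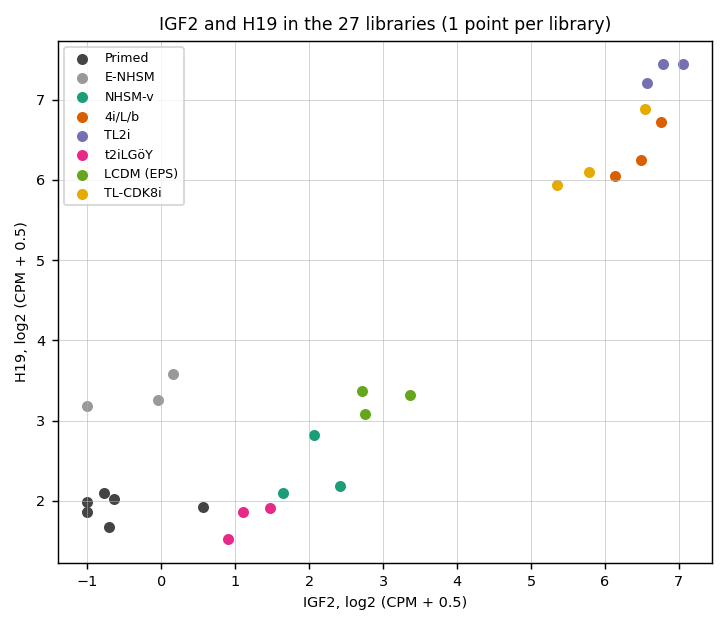
Each point is 1 of the 27 libraries, placed by the log2(CPM + 0.5) of IGF2 (horizontal axis) and of H19 (vertical axis) and coloured by group. The 9 libraries of TL2i, 4i/L/b and TL-CDK8i form a separate cluster with IGF2 at 40.4 CPM or more and H19 at 60.9 CPM or more, so no correlation over all libraries was read from it.

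In the fibroblast marker list, whose genes are those of collagen-rich connective tissue, 7 of 9 markers were higher in each of 4i/L/b, TL2i, TL-CDK8i and NHSM-v cells, against 22.3% to 28% of all genes. In 4i/L/b and in TL2i 1 was lower, t2iLGöY had 3 higher and 2 lower of 7 tested, LCDM (EPS) 2 higher and 4 lower of 9, and E-NHSM 1 higher and 5 lower of 7. Among the 7 were LUM and DCN, which had no read in primed cells and passed the filter only where they were high. The summed level was 8750 to 11300 CPM in TL-CDK8i, 2960 to 5760 CPM in TL2i and 7880 to 8420 CPM in NHSM-v libraries, and 3430 to 4040 CPM in t2iLGöY and 783 to 1020 CPM in LCDM (EPS) libraries. LUM and DCN were at the floor in primed, E-NHSM and t2iLGöY cells, where IGF2 was also lowest. COL1A1 did not share this order, with a mean of 3140 CPM in t2iLGöY and 2410 CPM in TL2i cells. Nor did DCN throughout, with a mean of 7.12 CPM in LCDM (EPS), where mean IGF2 was 7.35 CPM, and 5.73 CPM in TL2i cells. NHSM-v, with a fibroblast sum above that of TL2i, had a mean IGF2 of 3.73 CPM against 112 CPM. Endoderm markers were called higher mainly in TL2i, the group with the highest mean IGF2. Of 7 markers, 5 were higher and 1 lower in TL2i and 2 higher and 1 lower in 4i/L/b, and in TL-CDK8i 1 of 6 tested was higher and 0 lower. In NHSM-v, t2iLGöY, LCDM (EPS) and E-NHSM 5 were tested, with 0, 1, 0 and 0 higher and 3, 3, 2 and 1 lower. Over all genes, 25.6% were higher in TL2i, 26.6% in 4i/L/b and 22.3% in TL-CDK8i. The endoderm counts of 4i/L/b and TL-CDK8i are thus near those of all genes. In the other protocols 11.1% to 28.2% of all genes were higher and 15.1% to 30.6% lower. The endoderm sum ranged from 23.8 to 30.6 CPM in primed, 176 to 298 CPM in TL2i, 45.5 to 55.7 CPM in 4i/L/b and 33 to 64.7 CPM in TL-CDK8i libraries, and from 124 to 168 CPM in t2iLGöY and 1.75 to 16.6 CPM in NHSM-v, LCDM (EPS) and E-NHSM libraries. Most of the sum was TTR in t2iLGöY (mean 148 CPM) and APOA1 in TL2i cells (mean 176 CPM). TTR was at the floor in primed, TL-CDK8i and E-NHSM cells, GATA6 in E-NHSM, AFP in 4i/L/b, NHSM-v, t2iLGöY and LCDM (EPS), SOX17 and FOXA2 in NHSM-v and t2iLGöY, and GATA4 in t2iLGöY cells. The part of fibroblast or endoderm cells in the IGF2 and H19 values was not tested.

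Genes of the IGF pathway, the ligand IGF1, receptors, insulin receptor substrates, binding proteins and mRNA-binding proteins, were called in both directions in 6 of the 7 protocols. Of 15 genes, 14 were tested in TL2i, with 4 higher and 5 lower, where 25.6% and 25.2% of all genes were, and 14 in 4i/L/b, with 4 higher and 6 lower, where 26.6% and 29% were, so these counts are near those of all genes. In LCDM (EPS) 0 of 13 were higher and 11 lower, at a median log2 fold change of -0.93 (28.9% of all genes lower), and in t2iLGöY 1 of 14 was higher and 10 lower, at a median of -0.85 (27.2% of all genes lower). NHSM-v had 5 higher and 7 lower of 14, TL-CDK8i 5 higher and 2 lower of 14, and E-NHSM 1 higher and 6 lower of 13. Over all genes, 28% were higher and 30.6% lower in NHSM-v, 22.3% and 23.8% in TL-CDK8i, and 11.1% and 15.1% in E-NHSM. INSR, the insulin receptor, was lower under 6 protocols, from 72.5 ± 9.32 CPM (SD, n = 6) in primed to 27.8 ± 1.13 CPM (SD, n = 3) in TL2i cells. IRS1, which relays receptor signals, was lower under 6, down to 44.9 ± 3.06 CPM in LCDM (EPS) from 176 ± 16.3 CPM. IGF2BP3, a protein that binds IGF2 mRNA, was lower under 6 and higher under E-NHSM, with log2 fold changes from -1.7 ± 0.11 (NHSM-v) to 0.28 ± 0.085 (SE).

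PHLDA2, a pleckstrin homology domain protein that restrains growth of the placenta, was the maternally expressed gene of the set. Primed libraries held 8.04, 10.5, 17.7, 11.7, 14 and 15.7 CPM. In t2iLGöY libraries there were 1, 0 and 0 reads, so that PHLDA2 was at least 62.6-fold lower than in primed cells when 3 counts per library are taken as the floor. LCDM (EPS) libraries held 0.341, 0.236 and 0.541 CPM, a log2 fold change of -5.09 ± 0.48 (SE, adjusted p = 6.3e-07). Both groups lay wholly below the primed range.

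A smaller difference in PHLDA2 was seen in TL2i, at 2.3, 2.16 and 2.55 CPM (log2 fold change -2.47 ± 0.35, SE, adjusted p = 5.8e-05), and in E-NHSM, at 3.39, 2.61 and 2.69 CPM (-2.16 ± 0.36, adjusted p = 0.00019). In 4i/L/b the values of 6.34, 5.59 and 9.05 CPM overlapped the primed range, with a log2 fold change of -0.93 ± 0.32 (adjusted p = 0.024). TL-CDK8i gave 7.68, 7.13 and 8.51 CPM, likewise overlapping, and -0.78 ± 0.30 (adjusted p = 0.046). The 4i/L/b call was lost without its replicate 1 (adjusted p = 0.1) or 2 (adjusted p = 0.11) or primed K3 (adjusted p = 0.053). The TL-CDK8i call was lost without any 1 of its own libraries (adjusted p = 0.13, 0.15 and 0.11) and without primed J3, K1, K2 or K3 (0.059, 0.054, 0.075 and 0.089). NHSM-v, at 9.02, 8.85 and 10 CPM, was not called, and the approximate 95% interval of its log2 fold change ran from -1.1 to 0.1.

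DLK1, a transmembrane protein of the Notch ligand family that holds progenitor cells undifferentiated, was low in primed cells and high in t2iLGöY cells. Primed libraries held 1.79, 1.51, 3, 0.685, 0.138 and 0.975 CPM and E-NHSM libraries 0.612, 2.22 and 1.72 CPM, and the groups overlapped (log2 fold change 0.17 ± 1.1, SE, adjusted p = 0.93). In t2iLGöY the values were 164, 194 and 168 CPM, above all other libraries, and the log2 fold change was 7.21 ± 0.36 (SE, adjusted p = 4.3e-10). It was 6.44 against the J and 8.27 against the K primed libraries alone. Those held 1.51 to 3 CPM (J) and 0.138 to 0.975 CPM (K), a difference that was not called (adjusted p = 0.55). LCDM (EPS) followed with 60.1, 57.1 and 60 CPM and NHSM-v with 47.8, 52.2 and 44.7 CPM. TL2i (26.5, 39.1 and 31.3 CPM) and 4i/L/b (19.4, 41.3 and 22.8 CPM) overlapped each other. TL-CDK8i was lowest of the 6 at 11.6, 13.3 and 10.2 CPM, still above every primed library, with a log2 fold change of 3.09 ± 0.63 (adjusted p = 0.0011).

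RTL1, a retrotransposon-derived gene that is also paternally expressed and lies near DLK1 in the RefSeq annotation, was listed at 0 counts in all 6 primed libraries. Against the floor of 3 counts per library it was at least 124-fold higher in t2iLGöY, where its mean was 35.6 ± 9.84 CPM (SD, n = 3). For 4i/L/b the bound was at least 31.9-fold, for NHSM-v 25.3-fold, for LCDM (EPS) 17.1-fold and for TL2i 13.1-fold. In TL-CDK8i it reached 0.655 ± 0.254 CPM, where it was not tested. Like MKRN3 described with NDN, it passed the filter only where it was high. DLK1 and RTL1 thus had their highest mean in the same group.

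PLAGL1 and PEG3 encode zinc finger transcription factors. PLAGL1, which in mice acts on a network of imprinted genes, was at 2.9 to 11.1 CPM in primed libraries and at 3.11, 0.5 and 2.1 CPM in E-NHSM libraries. The E-NHSM value was lower by the test (log2 fold change -2.08 ± 0.59, SE, adjusted p = 0.014), although 1 library overlapped the primed range, and the call was lost without E-NHSM replicate 2 (-1.63, adjusted p = 0.057). In LCDM (EPS) PLAGL1 stood at 262, 247 and 241 CPM, a log2 fold change of 4.98 ± 0.25 (adjusted p = 9.4e-10). Its level fell in order through 4i/L/b (196, 196 and 200 CPM), TL2i (115, 150 and 129 CPM), NHSM-v (105, 128 and 116 CPM), TL-CDK8i (78.6, 69.9 and 76.6 CPM) and t2iLGöY (53.3, 55.5 and 53.2 CPM). TL2i and NHSM-v overlapped and the other neighbours did not.

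PEG3, a regulator of growth and maternal behaviour in mice, was at 31.3, 36.1 and 38.6 CPM in the J and 51.3, 54.9 and 60.7 CPM in the K primed libraries. E-NHSM, at 56.3, 56.9 and 60.3 CPM, was not called (log2 fold change 0.34 ± 0.18, SE, adjusted p = 0.20), though it was called against the J libraries alone (0.71, adjusted p = 0.0038). The highest levels were in TL2i (628, 738 and 630 CPM) and t2iLGöY (521, 615 and 490 CPM), with log2 fold changes of 3.86 ± 0.17 and 3.60 ± 0.17. LCDM (EPS), 4i/L/b and NHSM-v reached means of 204, 193 and 151 CPM.

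TL-CDK8i libraries disagreed on PEG3. Replicate 1 held 763 reads (87.5 CPM) and replicates 2 and 3 held 0. At the depth of those 2 libraries 3 counts equal 0.311 CPM on average, so that PEG3 was at least 147-fold lower in them than the primed mean and replicate 1 was above every primed library. The log2 fold change against primed cells over the 3 libraries, -0.70 ± 1.0 (SE, adjusted p = 0.60), therefore describes none of them. PEG3 was the only gene in TL-CDK8i with 0 counts in a library and at least 200 in another.

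**Figure D3:**
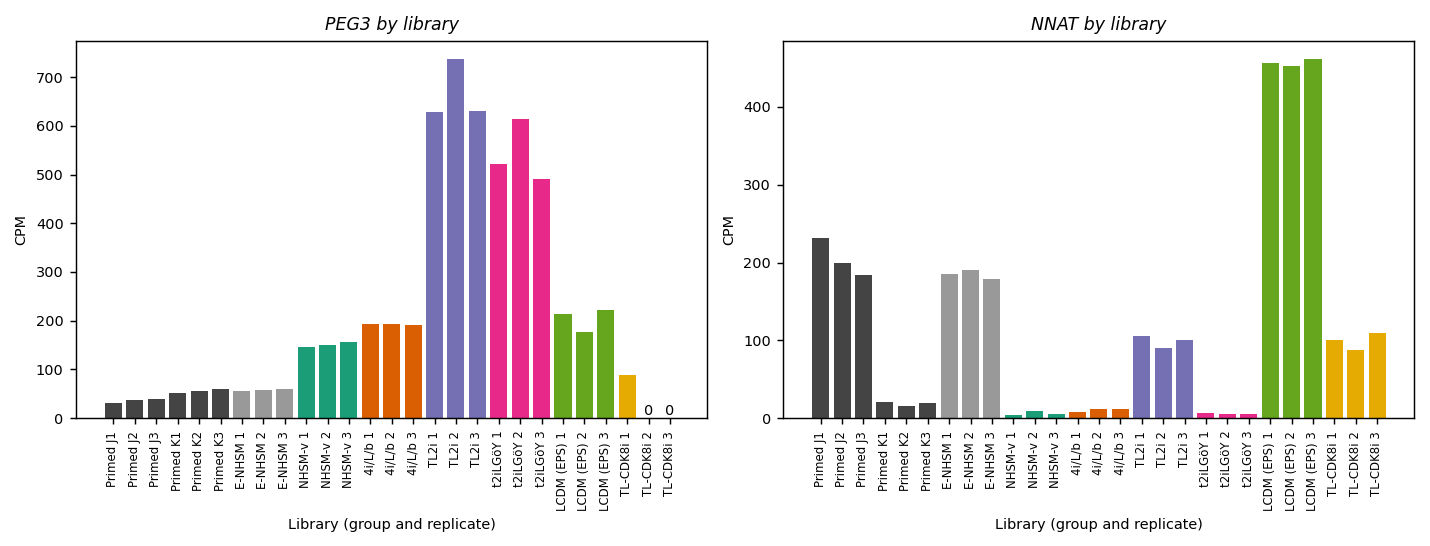
Bars give the CPM of PEG3 (left) and NNAT (right) in each of the 27 libraries, coloured by group, with 0 written over libraries without a read. PEG3 is at 87.5 CPM in TL-CDK8i replicate 1 and absent from replicates 2 and 3, and NNAT splits the primed libraries into 184 to 231 CPM (J) and 15.5 to 20.8 CPM (K).

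PEG10 and SGCE are neighbours, with 0 genes between them in the RefSeq annotation, and in humans share a promoter region. PEG10, a retrotransposon-derived gene needed for the placenta, was at 92.5 to 150 CPM in primed libraries. It was highest in NHSM-v (961, 1030 and 953 CPM, log2 fold change 3.00 ± 0.13, SE, adjusted p = 9.2e-11) and LCDM (EPS) (932, 920 and 912 CPM, 2.94 ± 0.13). TL2i (536, 462 and 526 CPM) and 4i/L/b (522, 479 and 482 CPM) overlapped, and t2iLGöY was lower at 421, 406 and 388 CPM. In TL-CDK8i the values of 196, 198 and 162 CPM were above all primed libraries, by 0.57 ± 0.15 on the log2 scale (adjusted p = 0.0065). E-NHSM was not called, with an approximate 95% interval of -0.4 to 0.17. It was called lower against the K primed libraries alone (-0.34, adjusted p = 0.0095) and not called against the J libraries alone (0.17, adjusted p = 0.32).

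SGCE, a sarcoglycan of the cell membrane whose loss causes myoclonus dystonia, had a narrower span. Primed libraries held 4.11 to 14.1 CPM. NHSM-v (43.2, 43.7 and 54.5 CPM), t2iLGöY (35, 57.4 and 39.5 CPM) and LCDM (EPS) (44.1, 53.6 and 34 CPM) overlapped one another and lay above all primed libraries. The log2 fold changes were 2.19 ± 0.29 (SE, adjusted p = 1e-05), 2.14 ± 0.31 (adjusted p = 3.1e-05) and 2.12 ± 0.30 (adjusted p = 3.4e-05). The change was 1.44 ± 0.30 in 4i/L/b and 1.11 ± 0.32 in TL2i (adjusted p = 0.01), the latter lost without TL2i replicate 1 (0.99, adjusted p = 0.057). TL-CDK8i, at 14.2, 21 and 17.2 CPM, was not called (0.73 ± 0.33, adjusted p = 0.089), nor was E-NHSM. The TL-CDK8i change was called without primed J3 (0.85, adjusted p = 0.043) and with all 8 groups in one fit (0.79, adjusted p = 0.0086). It was also called against the K primed libraries alone (1.12, adjusted p = 0.016), but not against the J libraries alone (0.43, adjusted p = 0.19).

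MEST, an enzyme of the alpha/beta hydrolase fold that marks mesoderm in mouse embryos, had the tightest primed values of the set, from 137 to 156 CPM. It was highest in NHSM-v at 1900, 1750 and 1810 CPM (log2 fold change 3.61 ± 0.064, SE, adjusted p = 7e-15). 4i/L/b followed at 1210, 1310 and 1320 CPM. LCDM (EPS) and t2iLGöY overlapped, with means of 876 ± 27 and 869 ± 51.4 CPM (SD, n = 3), and TL2i had a mean of 781 ± 25.4 CPM. TL-CDK8i libraries varied more, at 450, 716 and 499 CPM (log2 fold change 1.87 ± 0.12, adjusted p = 2e-08). In E-NHSM the 215, 180 and 229 CPM also lay above every primed library, by 0.51 ± 0.095 (adjusted p = 0.00056). MEST is among the genes that the study listed for a heat map of these cells, and how they were chosen is not given in the sources used here, so its direction is not taken as independent evidence.

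CPA4, a carboxypeptidase gene near MEST that is maternally expressed in humans, was at 0 to 0.863 CPM in primed and at 0 in all E-NHSM libraries. Its order among protocols was unlike that of MEST, with the highest mean in TL-CDK8i (48.9 ± 20.4 CPM, SD, n = 3). The means in LCDM (EPS), NHSM-v, TL2i and 4i/L/b cells lay between 5.34 and 17 CPM, with every library above the primed ones. CPA4 had no read in 5 primed libraries and 8 reads in the other, so it too passed the filter only where it was high, and no fold is given.

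NDN, a protein of the MAGE family that favours cell cycle exit of neurons, lies in the region deleted in Prader-Willi syndrome. Primed libraries held 12.3, 14.9, 0, 3.85, 9.4 and 11.3 CPM, with no read in J3. J3 lacked reads for 18 genes for which every other primed library had at least 50. NDN was highest in t2iLGöY (67, 84.4 and 54.7 CPM, log2 fold change 3.01 ± 0.55, SE, adjusted p = 3e-04) and LCDM (EPS) (65.5, 63.6 and 68.5 CPM, 2.92 ± 0.55, adjusted p = 0.00041), which overlapped. NHSM-v (43.5, 51.2 and 38.2 CPM) and 4i/L/b (31.6, 32.5 and 36.4 CPM) were also higher, by 2.33 ± 0.58 (adjusted p = 0.0028) and 1.91 ± 0.60 (adjusted p = 0.016). The 4i/L/b call was lost without 4i/L/b replicate 3 (1.85, adjusted p = 0.056) and with DESeq2 (2.00, adjusted p = 0.087).

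TL2i (22.3, 18.6 and 20.7 CPM) and TL-CDK8i (17.5, 17.3 and 17.7 CPM) lay above all primed libraries for NDN without being called, at 1.24 ± 0.64 (SE, adjusted p = 0.12) and 0.96 ± 0.66 (adjusted p = 0.25). Without primed library J3, TL2i was called at 0.99 (adjusted p = 0.02). With all 8 groups in one fit, TL2i (1.23, adjusted p = 0.0047) and TL-CDK8i (1.00, adjusted p = 0.027) were both called. Both were called against the K primed libraries alone (adjusted p = 0.0046 and 0.022) and neither against the J libraries alone (adjusted p = 0.26 and 0.4). E-NHSM, at 11.3, 14.1 and 14.8 CPM, overlapped the primed range.

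Other genes of the Prader-Willi region did not all go the same way. MKRN3, a ubiquitin ligase whose loss brings early puberty, had 0 reads in primed and E-NHSM libraries and was at least 82.3-fold higher in LCDM (EPS), where its mean was 23.6 ± 0.79 CPM (SD, n = 3), against the floor of 3 counts per library. It was at least 37.4-fold higher for NHSM-v, 21-fold for t2iLGöY and 10.9-fold for 4i/L/b. SNURF, the upstream reading frame of the SNRPN transcript, was by contrast lower under 6 protocols, from 623 ± 41.2 CPM (SD, n = 6) in primed to between 136 and 297 CPM, and slightly higher in E-NHSM (log2 fold change 0.20 ± 0.067, SE, adjusted p = 0.032). The symbol SNRPN was sought and was not found in the count tables. UBE3A, the Angelman syndrome gene, which is imprinted mainly in neurons, was lower in NHSM-v, TL2i, t2iLGöY and TL-CDK8i, by at most 0.48 on the log2 scale, where TL-CDK8i had -0.48 ± 0.089 (adjusted p = 0.00053).

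NNAT, a small membrane protein of developing neurons, split the primed libraries by the letter of their columns. The J libraries held 231, 199 and 184 CPM and the K libraries 20.8, 15.5 and 20 CPM, a log2 difference of K minus J of -3.46 ± 0.15 (SE, adjusted p = 3e-10). In that comparison 3.73% of all genes were called, and of the 9 imprinted genes tested PEG3 (0.65 ± 0.17, adjusted p = 0.048) and PEG10 (0.51 ± 0.12, adjusted p = 0.029) were called besides NNAT. The split of 3 and 3 has the size of the labelled sets Primed and Primed 2, but which letter is which set is not given, and each NNAT comparison is therefore given against J and against K.

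LCDM (EPS) had the highest NNAT, at 456, 453 and 462 CPM, above every J and K library. The log2 fold change was 2.05 ± 0.69 (SE, adjusted p = 0.021) against all primed libraries, 1.18 against J and 4.61 against K. The first call was lost without LCDM (EPS) replicate 1 (2.07, adjusted p = 0.051) or replicate 3 (2.06, adjusted p = 0.05), and not in the fits with the J or the K libraries alone. NHSM-v (4.29, 9.67 and 5.46 CPM), 4i/L/b (8.36, 11.7 and 11.5 CPM) and t2iLGöY (5.93, 4.94 and 5.71 CPM) overlapped in part and were below every primed library. Their log2 fold changes were -4.12 ± 0.96 (adjusted p = 0.0018), -3.44 ± 0.94 (adjusted p = 0.0066) and -4.30 ± 0.94 (adjusted p = 0.0013), and the direction was the same against J (-4.96, -4.30 and -5.19) and against K (-1.55, -0.86 and -1.75).

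For 3 protocols the answer on NNAT changed with the primed set. TL2i (105, 90.5 and 99.8 CPM) and TL-CDK8i (100, 86.9 and 109 CPM) lay between the K and J libraries and were not called against all 6. Against J, both were lower, with log2 fold changes of -1.05 in TL2i (adjusted p = 6.3e-05) and -1.08 in TL-CDK8i (adjusted p = 7.5e-05), and against K both were higher, at 2.38 (adjusted p = 5.6e-08) and 2.35 (adjusted p = 3.9e-07). E-NHSM (185, 190 and 179 CPM) was close to the J level (-0.15, adjusted p = 0.29) and above K (3.30, adjusted p = 2.1e-13).

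The neural marker list moved in part with NDN, DLK1 and NNAT. All 10 neural markers were higher in LCDM (EPS). In t2iLGöY 9 were higher and 1 lower, in NHSM-v 8 and 1, in each of 4i/L/b and TL2i 7 and 1, in TL-CDK8i 4 and 1 of 8 tested, and in E-NHSM 1 and 2 of 7 tested. Over all genes the share called higher was 28.2% in LCDM (EPS), 27.1% in t2iLGöY and 28% in NHSM-v. It was 26.6% in 4i/L/b, 25.6% in TL2i and 22.3% in TL-CDK8i. In E-NHSM 26.2% of all genes were called, 11.1% higher and 15.1% lower. The summed level was highest in LCDM (EPS) and then in t2iLGöY (4470 to 4920 CPM), which also had the highest DLK1 and NDN, whereas NNAT was highest in LCDM (EPS) and lowest in t2iLGöY. SOX1 was at the floor in primed cells, and ELAVL3 and ELAVL4 held at most 18 and 7 reads in a primed library. These genes passed the filter only through the libraries in which they are high, so that their being tested already favoured a call. The part of neural cells in these values was not tested.

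**Figure D4:**
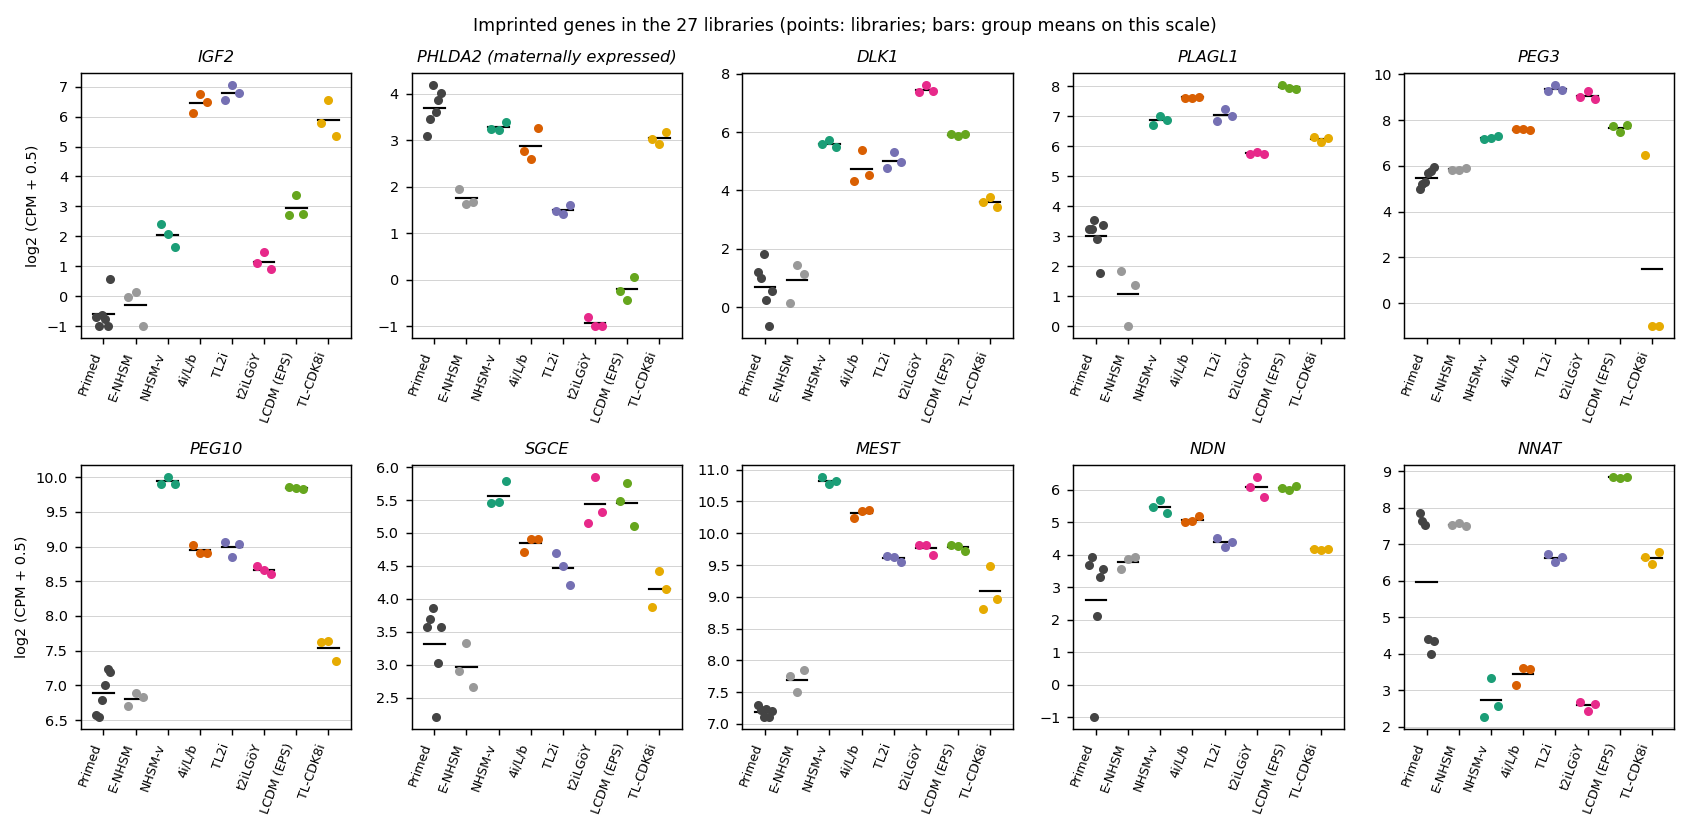
Each panel shows 1 imprinted gene, with log2(CPM + 0.5) on the vertical axis, a point for each of the 27 libraries and a bar at the mean of each of the 8 groups. PHLDA2 is highest in primed cells, MEST is above the primed range in every protocol, and wide spreads within a group are seen for NNAT and NDN in primed and PEG3 in TL-CDK8i cells.

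Across the 8 group means of log2(CPM + 0.5), the patterns most like that of DLK1 were those of SGCE (Pearson r = 0.95, Spearman rho = 0.86) and NDN (r = 0.92, rho = 0.98), whose order differs between the measures. By Pearson's r, PEG10 was about as close to SGCE (r = 0.92) as to MEST (r = 0.91). IGF2 was most like PLAGL1 (r = 0.73). These values describe 8 points that share the primed group and the division into cells with and without high pluripotency marker levels.

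All 10 imprinted genes differed among the 7 protocols by the edgeR quasi-likelihood F test, where 90.9% of all genes did, so the count says little of these genes. NNAT had the largest F statistic (565) and PEG3 the smallest (13.6, adjusted p = 1.2e-06).

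TL-CDK8i and TL2i share tamoxifen-activated STAT3 and LIF and differ in their inhibitors. Between them 7 of 10 imprinted genes were called, 1 higher and 6 lower in TL-CDK8i, where 64.9% of all genes were called, 31.5% higher and 33.3% lower. The median log2 difference was -0.69 for the imprinted genes and -0.038 for all genes tested. DLK1 (-1.50 ± 0.17, SE, adjusted p = 4.6e-06) and PEG10 (-1.49 ± 0.11, adjusted p = 5.2e-08) were lower in TL-CDK8i without overlap of the libraries. IGF2 (-0.88 ± 0.22, adjusted p = 0.003), PLAGL1 (-0.84 ± 0.11, adjusted p = 1.5e-05) and MEST (-0.53 ± 0.14, adjusted p = 0.0037) were lower by less. PHLDA2 was higher by 1.70 ± 0.27 (adjusted p = 7.3e-05).

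For SGCE, NDN and NNAT the log2 difference between TL-CDK8i and TL2i was not called, with 95% intervals of -0.7 to -0.02, -0.54 to 0.01 and -0.23 to 0.18. SGCE was called without TL2i replicate 3 (-0.46, adjusted p = 0.049) or TL-CDK8i replicate 2 (-0.50, adjusted p = 0.034). With library totals in place of TMM, SGCE (-0.48, adjusted p = 0.023) and NDN (-0.38, adjusted p = 0.029) were both called, and the count was 9 of 10. PEG3 was lower, with a log2 difference of -4.55 ± 0.99 (SE, adjusted p = 0.0011) that includes the 2 TL-CDK8i libraries without a read, and DESeq2 did not call it (-4.50, adjusted p = 0.19). The count of 7 includes PEG3.

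Other imprinted genes, listed by parental expression, were counted in the same comparisons. Of 9 further paternally expressed genes found, 4 of 8 tested were higher and 1 lower in each of 4i/L/b, t2iLGöY and LCDM (EPS), with median log2 fold changes of 0.53, 1.12 and 1.26, where 26.6%, 27.1% and 28.2% of all genes were higher. In TL2i 4 of 7 were higher and 1 lower, in NHSM-v 2 of 7 and 1, in TL-CDK8i 2 of 6 and 1, and in E-NHSM 2 of 6 and 0. MKRN3, RTL1 and DIRAS3, with 0 reads in primed libraries, entered these counts and medians only where they were high. Their being tested already favoured a call. Of 11 further maternally expressed genes, 9 were tested in 6 of the comparisons, and their medians lay between -0.32 (NHSM-v) and 0.72 (TL2i). Of these, 4 were higher and 0 lower in 4i/L/b and in LCDM (EPS), 3 higher and 2 lower in TL2i, 2 and 2 in NHSM-v, 1 and 1 in t2iLGöY, and 2 and 3 in TL-CDK8i. E-NHSM had 2 higher and 0 lower of 8. CPA4, described with MEST, entered these counts only where it was high. Over all genes, between 11.1% (E-NHSM) and 28.2% (LCDM (EPS)) were higher and between 15.1% (E-NHSM) and 30.6% (NHSM-v) lower. Several counts of both lists are thus near those of all genes. SLC22A18 and CDKN1C, an inhibitor of the cell cycle, lie near PHLDA2 in the RefSeq annotation, with 0 and 2 genes between, and are named after their values were seen. SLC22A18 was called under 0 of the 7 protocols. CDKN1C was higher in LCDM (EPS) (105 ± 3.71 CPM, SD, n = 3) and t2iLGöY (62.8 ± 3.92 CPM), where PHLDA2 was lowest, than in primed cells (15.5 ± 7.57 CPM, n = 6), with log2 fold changes of 2.75 ± 0.33 (SE, adjusted p = 7.3e-06) and 2.03 ± 0.34 (adjusted p = 0.00015). It was lower in TL-CDK8i (4.86 ± 1.33 CPM, -1.73 ± 0.47, adjusted p = 0.0072) and was not called in the other 4.

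Genes that keep imprints through early development, mostly factors that hold methylation at imprinted regions, differed in direction among themselves. ZFP57, a zinc finger protein that recognizes methylated imprinting control regions, fell under all 7 protocols, from 29 ± 9.37 CPM (SD, n = 6) in primed to 0.875 ± 0.83 CPM (SD, n = 3) in NHSM-v and 16.4 ± 2.53 CPM in E-NHSM. TRIM28, its corepressor, was lower under 6, from 808 ± 73.1 CPM to between 419 and 615 CPM. ZNF445, a second zinc finger protein with this role, went the other way and was higher under 6, from 93.4 ± 15 CPM to between 145 and 202 CPM, with 107 ± 12.5 CPM in TL-CDK8i, where it was not called. Of the 8 genes of this list, the number higher and lower was 1 and 3 in E-NHSM, 2 and 4 in NHSM-v, 1 and 5 in 4i/L/b, 1 and 3 in TL2i, 1 and 3 in t2iLGöY, 2 and 2 in LCDM (EPS) and 0 and 6 in TL-CDK8i. All 8 were tested in E-NHSM and TL2i and 7 in the others. Between 15.1% (E-NHSM) and 30.6% (NHSM-v) of all genes were lower, so that several of these counts, such as that of LCDM (EPS), are near the background.

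Among 6 genes of DNA methylation, those that add methyl groups de novo were lower in most protocols. DNMT3B, a de novo methyltransferase, went from 3100 ± 181 CPM in primed to 26 ± 3.77 CPM in NHSM-v and 801 ± 155 CPM in TL-CDK8i, and rose slightly to 3520 ± 51.3 CPM in E-NHSM (log2 fold change 0.18 ± 0.047, SE, adjusted p = 0.009). DNMT3A was lower under all 7 protocols, from 377 ± 23.5 CPM to between 102 and 220 CPM. TET1, which oxidizes methylcytosine, was lower under 6, from 221 ± 34 CPM to as little as 32.6 ± 4.49 CPM in NHSM-v. TET2, of the same family and singled out after its values were seen, was higher under 5. Of the list 5 genes were tested, and 3 were lower in each protocol but E-NHSM, where 1 was. Over all genes, 15.1% were lower in E-NHSM and between 23.8% (TL-CDK8i) and 30.6% (NHSM-v) in the others. Methylation itself was not measured here.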

How the data were processed

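Per the labels, directional mRNA libraries were made from 200 ng of RNA, and the submitters' processing notes name bcl2fastq, cutadapt, HISAT2 and HTSeq. Their versions, like the build and gene models, are not given in the sources used here. The authors deposited raw counts, whole reads per gene symbol, in 1 column per library, and all columns were used. Columns were assigned to groups by name, and the primed columns show only the group.

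CPM with TMM factors and quasi-likelihood tests were computed in edgeR 4.0.16 (R 4.3.3, limma 3.58.1). A fit used only the groups being compared and the genes kept by filterByExpr, with Benjamini-Hochberg adjustment over all genes tested. Standard errors were derived from fold changes and F statistics. Intervals cover the spread between libraries, and the floor of 3 counts covers counting error only. Only the main quasi-likelihood tests, against primed cells, between protocols and among all protocols, were tried on simulated data. The alternative settings listed below and the floor bounds were not.

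The imprinted genes and all gene lists were chosen with earlier results of these data known. Besides the 10 genes, the rule names up to 6 other imprinted genes, by the number of protocols in which they were called and then by the median size of the log2 fold change, and the 3 leading genes of the imprint maintenance, DNA methylation and IGF lists. Of 112 symbols on the lists, 108 were found.

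The alternatives were DESeq2 1.42.0, upper-quartile normalization, library totals only, no filter on low counts, all 8 groups in one fit, a replicate block and each library left out in turn. Fits with the J or the K primed columns alone were added after seeing the data. Gene neighbours are from RefSeq, whose table listed all 10 genes. As the files' build is not given, no positions are printed. Promoter sequence features were planned and could not be examined, since no sequence was used here.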

Additional observations from a re-analysis of the deposited data

Results flagged for a closer look

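IGF2 in primed library K3, at 0.975 CPM, stood apart from the other 5 primed libraries by Dixon's test. Of the 10 primed groups of values tested, 1 for each gene, this was the 1 set apart, and chance sets apart about 1 in 20. Without K3, IGF2 in t2iLGöY cells was called.

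The difference in PEG3 between TL-CDK8i and TL2i cells, -4.55 on the log2 scale, stood out because PEG3 had opposite signs in them against primed cells and the difference itself passed the test. TL-CDK8i replicates 2 and 3 held 0 reads, and replicate 1, at 87.5 CPM, was also below every TL2i library.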

How the results depend on the processing

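Of 1482 values for the imprinted genes recomputed under the alternatives, 1421 kept their direction and side of the threshold, 21 became called, 24 lost their call and 16 changed sign. With all 8 groups in one fit, 5255 genes were called in E-NHSM against 3486 when only its own and the primed libraries were used, and NNAT in TL-CDK8i against TL2i was 0.01. Against the K libraries alone, 5 imprinted genes were called in E-NHSM in place of 3, and NNAT was 2.38 in TL2i and 2.35 in TL-CDK8i. Against the J libraries alone, log2 fold changes in E-NHSM were -0.46 (DLK1), 0.17 (PEG10) and -0.15 (NNAT). With each library left out in turn, DLK1 in E-NHSM ranged from -0.20 to 0.58, NNAT in TL2i from -0.41 to 0.15, in TL-CDK8i from -0.46 to 0.15, and between TL-CDK8i and TL2i from -0.09 to 0.07. The cause was not tested. Most changed values were small or uncalled, but the calls of PHLDA2 in TL-CDK8i and 4i/L/b each changed under at least 1 alternative. The same held for NDN in 4i/L/b, TL2i and TL-CDK8i, and for SGCE in TL2i and TL-CDK8i. It also held for NNAT in LCDM (EPS), whose call was lost with DESeq2 (2.07, adjusted p = 0.05).

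Replicate numbers do not pair these samples, as the correlation of deviations between same-numbered libraries had a median of -0.0023 over 63 pairs and a range of -0.15 to 0.11. With the replicate block, 13246 genes and 10 imprinted genes differed among the protocols, and 8420 genes and 7 imprinted genes between TL-CDK8i and TL2i. Depth limits IGF2, RTL1 and MKRN3 in primed and PHLDA2 in t2iLGöY libraries, which lie near or under the floor.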
